A study of Mus musculus with 31 samples.

Results

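Glutathione is a tripeptide of glutamate, cysteine and glycine that serves as the main soluble thiol of mouse cells, and the oocyte supplies the early embryo with both the peptide and the enzymes that handle it. It is made by glutamate-cysteine ligase and glutathione synthetase, oxidized by peroxidases and returned to its reduced form by glutathione reductase. The γ-glutamyl cycle breaks it down through γ-glutamyl dipeptides and 5-oxoproline, which is opened again to glutamate. Results are given for 10 genes of this cycle among the 20544 gene symbols measured, namely Ggct, Gclc, Gclm, Gss, Gsr, Gpx1, Gpx4, Oplah, Chac1 and Glrx. Ggct (γ-glutamylcyclotransferase, which releases 5-oxoproline from γ-glutamyl dipeptides) was chosen by its value in this same comparison, in which it had the smallest p-value of the genes lower in the SER group, and the other 9 genes were added as its pathway. Its difference between the groups is therefore given as a description with no test.

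RNA was sequenced by Smart-seq3, a full-length single-cell protocol, from 31 whole 2-cell mouse embryos, each a library of its own. Eggs came from superovulated CD1 females aged 8 to 10 weeks and sperm from C57BL/6J males aged 12 to 14 weeks, and all embryos are labelled wild type. For the 16 control-generated embryos, sperm were kept in complete fertilization medium (IVF-TYH +/+), and for the 15 SER-generated embryos, sperm from the opposite cauda were kept in medium lacking glucose and pyruvate (IVF-TYH -/-) until they stopped moving, which took 15 to 45 min, and were then returned to complete medium. SER stands for sperm energy restriction and recovery. Eggs of both groups were handled alike, and after 4 h with sperm they were cultured in KSOM medium and collected at 32 h after insemination. The labels do not say which embryos shared a male, a dish or a batch, so the tests measure the spread between these embryos.

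Counts per embryo ranged from 532945 to 2085222 in the control group and from 642321 to 3088396 in the SER group, and levels are given in CPM, counts scaled to a common total per embryo. The limit that a count of 0 allows, 3 counts, was 0.971 to 5.63 CPM, which covers counting error only. The oocyte transcripts Gdf9 and Zp3 and the zygotic genes Zfp352 and Zscan4d were detected in 31 of 31 embryos, Zfp352 at as little as 0.779 CPM. Of 27 oocyte transcripts, 23 to 26 were detected in an embryo of either group, and Oog1 was at 0 in every embryo. Of 23 zygotic activation genes, 9 to 23 were detected in a control embryo and 16 to 23 in a SER embryo. Among the 20 cumulus cell markers, 2 to 12 were detected in a control embryo and 4 to 10 in a SER embryo. Of these, Ereg was at 0 in every embryo, and Has2, Ptx3, Tnfaip6, Amh and Fshr were detected in 3, 1, 13, 4 and 1 of 31. The summed level of the 20 cumulus markers was 75.4 to 1896 CPM in control and 66.2 to 480 CPM in SER embryos. Of the 17 sperm markers, Acr was at 0 in every embryo, Prm1 was detected in 4 of 31 and Prm2 in 22 of 31, and their summed levels were 113 to 296 and 106 to 408 CPM. Control replicate 4 and SER replicate 15 stood apart from the other embryos, forming an estimated cluster of their own. The log2 fold changes of Ggct, Glrx and Gpx4 are given with and without them. So are the correlations with the oocyte transcripts and the zygotic activation genes that passed the threshold. Correlations between single genes are given over all 31 embryos. The mean log2 CPM of control replicate 4 and SER replicate 15 over the zygotic activation genes, 2.38 and 3.13, was the lowest of their groups, where the medians were 5.52 and 5.58. The remaining embryos formed a cluster of 11 control and 10 SER embryos and another of 4 and 4.

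The bases upstream of the start of transcription are shown for Ggct, for Chac1, whose enzyme also releases 5-oxoproline, from glutathione itself, and for Glrx, whose level varied most like that of Ggct among the 10 genes. They are the 250 bases before the RefSeq start in GRCm38.p6, at chr6:54992868-54993117 on the minus strand for Ggct, chr2:119350992-119351241 on the plus strand for Chac1 and chr13:75839635-75839884 on the plus strand for the first of 2 entries for Glrx. The gene positions given below come from GENCODE, whose start lies inside each of these windows. Part of each window is thus within the gene by GENCODE, and distances are counted from the RefSeq start. Capitals mark CCAAT on either strand.
Ggct: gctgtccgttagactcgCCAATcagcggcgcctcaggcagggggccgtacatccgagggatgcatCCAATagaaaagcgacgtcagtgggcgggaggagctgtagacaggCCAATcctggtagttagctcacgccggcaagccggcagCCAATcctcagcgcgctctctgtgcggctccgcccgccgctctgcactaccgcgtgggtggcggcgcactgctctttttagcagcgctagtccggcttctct
Chac1: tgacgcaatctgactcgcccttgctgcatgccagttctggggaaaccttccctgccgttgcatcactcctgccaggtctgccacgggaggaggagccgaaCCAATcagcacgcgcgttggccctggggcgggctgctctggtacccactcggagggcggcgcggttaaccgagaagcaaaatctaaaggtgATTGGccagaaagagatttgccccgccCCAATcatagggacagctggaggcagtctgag
Glrx: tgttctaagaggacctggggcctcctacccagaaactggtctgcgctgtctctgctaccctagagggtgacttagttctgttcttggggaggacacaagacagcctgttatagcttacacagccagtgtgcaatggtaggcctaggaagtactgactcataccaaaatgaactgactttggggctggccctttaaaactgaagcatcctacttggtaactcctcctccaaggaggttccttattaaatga
CCAAT occurred 4 times before Ggct, 3 times before Chac1 and 0 times before Glrx. It was present in 33.8% of 32851 RefSeq promoter windows of the same length, and 0.840% of the windows held 4 or more. GGGCGG, counted on both strands, occurred 2 times before Ggct, 3 times before Chac1 and 0 times before Glrx, against 32.7% of windows with at least 1. TATAAA was found in 12.4% of windows and in none of the 11 windows held for these genes. TGACNNNGC, the core of the antioxidant response element, was found in 10.2% of windows, before Ggct at 174 bases from the start and before Gclm, the modifier subunit of glutamate-cysteine ligase. Each motif was counted on both strands, overlaps between motifs were not removed, and a match describes these letters alone.

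Ggct was the most abundant of the 10 transcripts and was lower in the embryos from SER sperm. The gene lies at chr6:54982580-54992950 on the minus strand (GRCm38), with 7745 exonic bases that no other annotated exon overlaps. In control embryos its level was lowest at 375 CPM in replicate 15, had a median of 948 CPM and reached 4341 CPM in replicate 4, and in SER embryos it was lowest at 260 CPM in replicate 4, had a median of 476 CPM and reached 853 CPM in replicate 15. All 15 SER embryos lay below the control median, 11 of 16 control embryos lay above the highest SER embryo, and 12 of 15 SER embryos still lay within the control range. The mean was 1259 ± 942 CPM (SD, n = 16) in control and 544 ± 183 CPM (SD, n = 15) in SER embryos, so that the coefficient of variation was 74.8% against 33.7%. Control replicate 4 at 4341 CPM raised the control mean and spread, as the next highest control embryo, replicate 3, was at 2408 CPM. The coefficient of variation was not computed without it, so the values do not show how far the spread differs between the groups. Because this comparison chose Ggct, its fitted value may be overstated, and the SE does not account for the choice. The log2 fold change fitted by edgeR was -1.298 (SE 0.28), a level in SER embryos 0.407 times that in control embryos. Without control replicate 4 and SER replicate 15 it was -1.08 (SE 0.23), and with the mean level of the oocyte transcripts as a covariate it was -0.79 (SE 0.20). Fewer cells holding the transcript and less of it per cell cannot be told apart in whole embryos.

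**Figure D1:**
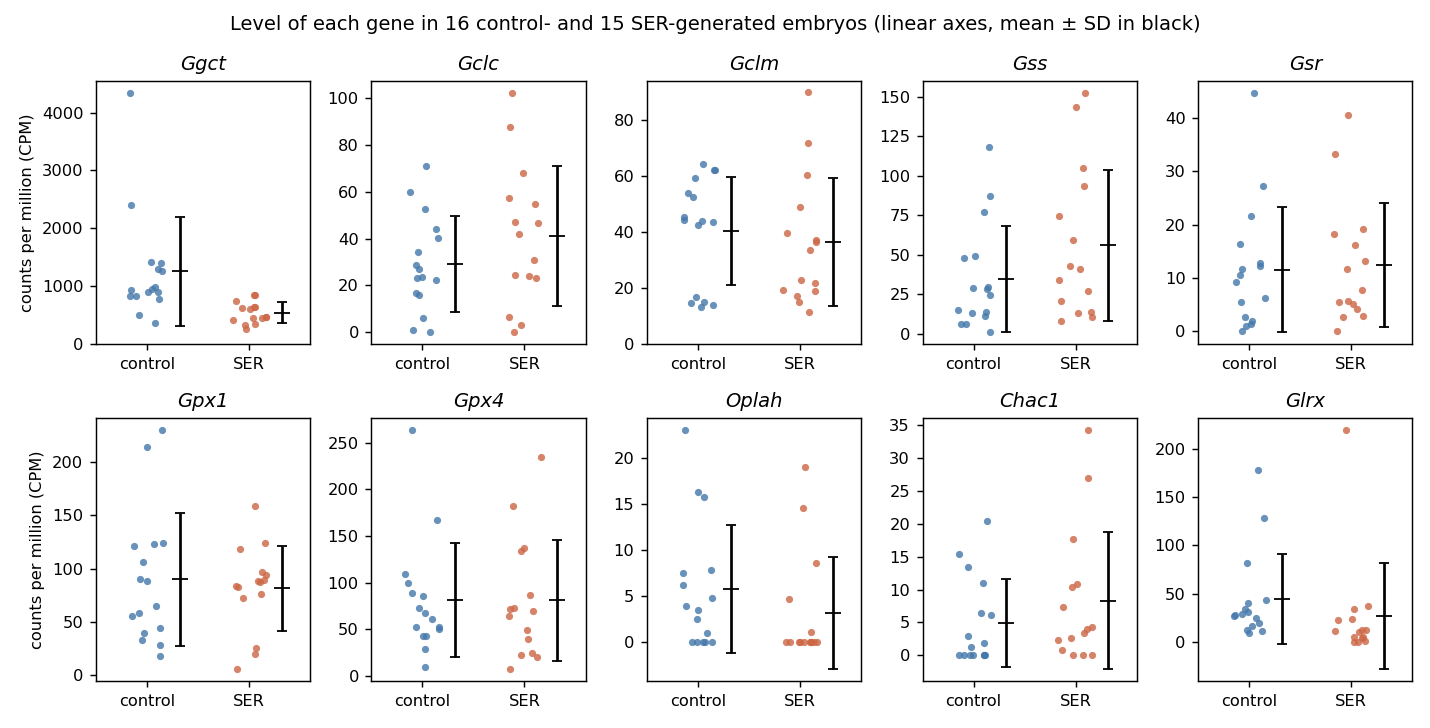
Level of each of the 10 genes in CPM on linear axes, with 1 point for each of 16 control- and 15 SER-generated embryos and the mean ± SD in black. Ggct spans 375 to 4341 CPM in control and 260 to 853 CPM in SER embryos, while the groups overlap broadly for the other genes, and a single SER embryo at 220 CPM stands above the rest for Glrx.

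Ggct made up 0.0260% to 0.434% of an embryo's counts, with a median of 0.0781%, and its mean CPM ranked 59 among the 20544 symbols. Per kilobase of exon its mean level over the 31 embryos was 118 CPM, followed by the peroxidases Gpx1 at 59.5 and Gpx4 at 47.0 CPM per kilobase. The counts hold reads from transcript starts and internal reads together, so division by length may not scale long and short genes alike. The genes of synthesis and of reduction formed a lower tier, with Gclc at 9.29, Gss at 7.62, Glrx at 6.50, Gclm at 6.11 and Gsr at 4.35 CPM per kilobase. By the mean over the 31 embryos the remaining enzymes of breakdown were lowest, Chac1 at 4.02 and Oplah at 0.775 CPM per kilobase. In SER embryos alone the mean of Chac1 was 5.09, above Glrx at 4.82 and Gsr at 4.51. Of the 9 pairs of neighbours in this order, Ggct exceeded Gpx1 by a mean log2 ratio of 1.02 ± 1.58 (SD, n = 31, higher in 20 of 31 embryos, 2-sided sign-flip permutation test with 100000 resamples, adjusted p = 0.00183). This test pooled the groups. The medians of Ggct and Gpx1 were 122 and 53.1 CPM per kilobase in control embryos, but 61.5 and 60.4 in SER embryos. The order of Ggct and Gpx1 was not tested within SER embryos. Gpx4 exceeded Gclc by 2.69 on the log2 scale and in 31 of 31 embryos, with an adjusted p of 9e-05, the smallest the permutations can give over 9 pairs. Gclm exceeded Gsr by 0.94 in 20 of 31 embryos (permutation adjusted p = 0.0171), and Chac1 exceeded Oplah by 2.53 in 25 of 31 (permutation adjusted p = 0.00027). The other neighbours, Gpx1 and Gpx4, Gclc and Gss, Gss and Glrx, Glrx and Gclm, and Gsr and Chac1, did not differ beyond their spread, with adjusted p of 0.0603 to 0.603. Glrx had a higher mean per kilobase of exon than Gclm, but its mean log2 ratio to Gclm was -0.79, and it was higher in only 10 of 31 embryos. With the length of the longest RefSeq-linked transcript in place of all exonic bases, Gss stood above Gclc, and the log2 ratio of Glrx to Gclm became 1.07. The order within the lower tier therefore depends on the length used and on whether means or log2 ratios are compared.

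**Figure D2:**
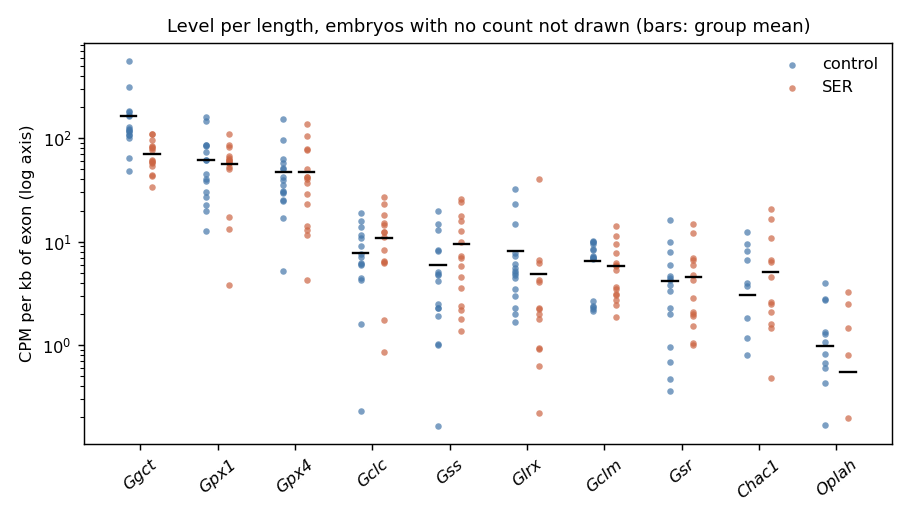
Level of each gene per kilobase of exon on a log axis, with 1 point per embryo, embryos with no count not drawn, and bars at the group means. Ggct lies highest, at a mean of 163 in control and 70.3 CPM per kilobase in SER embryos, and Oplah lowest, at 0.989 and 0.548.

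None of the other 9 genes passed an adjusted p of 0.1 by the quasi-likelihood test of edgeR, adjusted by Benjamini-Hochberg across the genes tested. Of the 9, 7 passed the filter on low counts, and the share of all genes called in that fit was 0% (0 of 8571). At an unadjusted p under 0.05, 304 genes were lower in SER embryos (3.55%) and 187 higher (2.18%), and 0 of the 7 genes were among them. Oplah and Chac1 failed the filter and were taken from the fit of all 17803 genes with a count, where 2.83% of genes were called. Of the 7 genes, 3 were lower and 4 higher, and the median of their log2 fold changes was 0.00, against 0.02 over all genes tested. DESeq2 called 0.605% of genes and limma voom with quality weights 9.89%. DESeq2 gave an adjusted p to 6 of the 9 genes and limma voom to 7, and each called 1, Glrx.

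**Figure D3:**
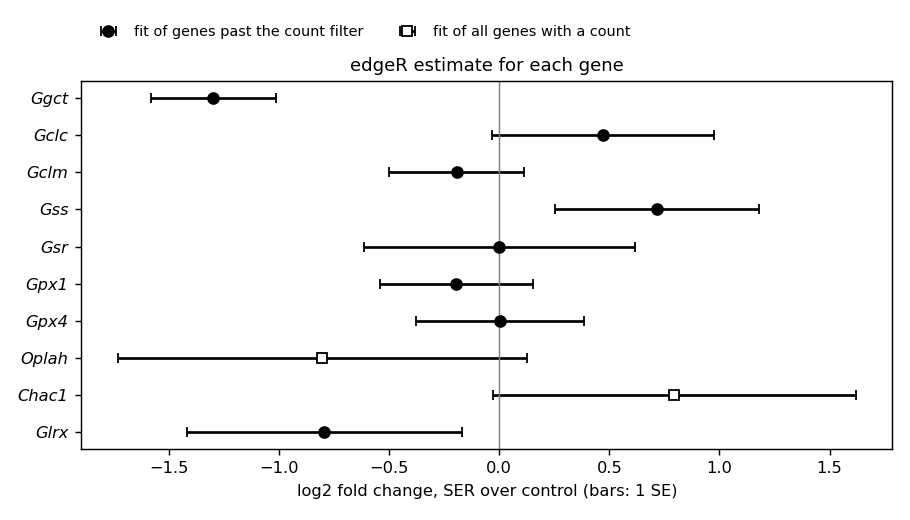
Log2 fold change of SER over control embryos from edgeR for each gene, with bars of 1 SE, filled circles for the fit of genes past the count filter and open squares for the fit of all genes with a count. Ggct lies at -1.298, and the other genes lie between -0.80 and 0.80 with wide errors.

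The genes of synthesis overlapped between the groups, and none passed the test. Gclc, the catalytic subunit of glutamate-cysteine ligase, the first and rate-limiting step (chr9:77754535-77794485, plus strand), was at 0 to 70.8 CPM (median 25.1) in control and 0 to 102 CPM (median 42.0) in SER embryos. The groups overlapped along almost their whole range, with 13 of 15 SER embryos within the control range and 1 embryo at 0 in each group. Its log2 fold change was 0.47 (SE 0.50, 95% interval -0.56 to 1.501, edgeR adjusted p = 0.958). Gclm, the modifier subunit (chr3:122245557-122270732, plus strand), was at 13.4 to 64.1 CPM (median 44.2) in control and 11.6 to 89.9 CPM (median 33.6) in SER embryos. Control embryos fell into 5 between 13.4 and 16.9 CPM and the others at 42.4 CPM and above, whereas SER embryos filled the gap, and 11 of 15 SER embryos lay below the control median. Its log2 fold change was -0.19 (SE 0.31, 95% interval -0.82 to 0.43, edgeR adjusted p = 0.973). The ratio of Gclc to Gclm per kilobase of exon had a median of 0.900 in control and 2.31 in SER embryos, with Gclm the higher of both in 9 of 16 and 5 of 15 embryos, and this ratio was not tested. Gss, glutathione synthetase, which adds glycine (chr2:155563181-155592810, minus strand), was at 0.975 to 118 CPM (median 26.4) in control and 8.10 to 152 CPM (median 41.1) in SER embryos. The ranges overlapped, with 10 of 15 SER embryos above the control median. Its log2 fold change was 0.72 (SE 0.46, 95% interval -0.23 to 1.67, edgeR adjusted p = 0.928). Exons of Gss share 913 bases with genes on the opposite strand and those of Gclm share 296 on the opposite and 244 on the same strand, and as the strand setting of the counting is not given, those reads cannot be told apart.

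The genes of oxidation and reduction also overlapped between the groups. Gsr, glutathione reductase (chr8:33652523-33698163, plus strand), was at 0 to 44.7 CPM (median 9.89) in control and 0 to 40.6 CPM (median 7.78) in SER embryos. All 15 SER embryos lay within the control range, and the log2 fold change was 0.00 (SE 0.61, 95% interval -1.25 to 1.26, edgeR adjusted p = 1.00). Gpx1, the cytosolic peroxidase that reduces hydrogen peroxide (chr9:108338903-108340343, plus strand), was at 18.1 to 231 CPM (median 76.5) in control and 5.45 to 158 CPM (median 87.1) in SER embryos. SER replicate 15 was the lowest of the SER embryos and control replicate 4 the lowest of the control embryos. The log2 fold change of Gpx1 was -0.19 (SE 0.35, 95% interval -0.91 to 0.52, edgeR adjusted p = 0.976). Gpx4, the peroxidase that reduces lipid hydroperoxides in membranes (chr10:80047166-80056439, plus strand), was at 9.05 to 264 CPM (median 64.4) in control and 7.39 to 235 CPM (median 70.1) in SER embryos. Group means were 81.0 CPM in both groups, and the log2 fold change was 0.00 (SE 0.38, 95% interval -0.78 to 0.78, edgeR adjusted p = 1.00).

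Glrx, glutaredoxin, which uses glutathione to reduce protein disulfides (chr13:75839868-75850154, plus strand), was the gene whose call depended most on the fit. Its level was 9.11 to 178 CPM (median 28.0) in control and 0 to 220 CPM (median 10.9) in SER embryos. Among SER embryos, 12 of 15 lay below the control median and 6 below the lowest control embryo, 2 of them at 0, while SER replicate 15 at 220 CPM (565 counts) was the highest of all embryos. Its log2 fold change was -0.79 (SE 0.62, 95% interval -2.07 to 0.48, edgeR adjusted p = 0.935). It was -1.93 by DESeq2 (adjusted p = 0.0599) and -1.73 by limma voom with quality weights (adjusted p = 0.0519), both past the threshold of 0.1. Without SER replicate 15 the edgeR value was -1.92 (adjusted p = 0.200), without control replicate 3 it was -0.41 (adjusted p = 0.997), and without control replicate 4 and SER replicate 15 it was -1.69 (adjusted p = 0.320). Its edgeR value was -2.32 with library size as a covariate (adjusted p = 0.650) and -1.65 with the estimated clusters as a term (adjusted p = 0.152).

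The remaining enzymes of breakdown were near the limit of detection. Chac1, which splits glutathione into 5-oxoproline and cysteinylglycine (chr2:119351229-119354381, plus strand), had 0 counts in 7 of 16 control and 3 of 15 SER embryos, with medians of 1.62 and 4.05 CPM and highest values of 20.5 and 34.3 CPM. Its log2 fold change was 0.80 (SE 0.82, 95% interval -0.89 to 2.48, edgeR adjusted p = 0.785). Oplah, the 5-oxoprolinase that returns 5-oxoproline to glutamate (chr15:76296601-76328015, minus strand), had 0 counts in 5 of 16 control and 10 of 15 SER embryos, with medians of 3.70 and 0 CPM and highest values of 23.0 and 19.0 CPM. Its log2 fold change was -0.80 (SE 0.93, 95% interval -2.70 to 1.10, edgeR adjusted p = 0.813), and 681 exonic bases of Oplah overlap genes on the opposite strand.

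Within the groups, 5 of the 10 genes varied between embryos with the level of oocyte transcripts, a measure that the selection of Ggct did not use. The measure is the mean log2 CPM of the 23 oocyte genes past the count filter, such as Gdf9 and Zp3, which the egg stores and the embryo degrades as it activates its own genome. The values are on the TMM-scaled log2 CPM scale, in which each embryo's total is adjusted by a normalization factor. The mean was 7.30 ± 0.57 (SD, n = 16) in control and 6.997 ± 0.602 (SD, n = 15) in SER embryos, and highest in control replicates 4 (8.60) and 3 (8.42) and in SER replicate 15 (8.59). Of the 23 oocyte genes, 18 were lower in SER embryos, the median of the log2 fold changes was -0.23 and 0 passed the threshold, where 47.3% of all genes tested were lower. Of the 20 zygotic activation genes past the count filter, 16 were higher, with a median of 0.21 and 0 past the threshold. The part of these shifts in the difference in Ggct was not tested beyond the fit with the covariate. With group means removed, 5 of the 10 genes correlated with the oocyte transcripts at an adjusted p under 0.05 (2-sided permutation test with 100000 resamples, Benjamini-Hochberg over 30 relations). Such relations were common, as 9.66% of all 8571 genes tested had an r of at least 0.5 and 17.5% an r of -0.5 or lower.

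Ggct and Glrx were higher in embryos with more oocyte transcripts. For Ggct, Pearson's r was 0.78 (n = 31, permutation p = 1e-05, the smallest the permutations can give, adjusted p = 0.00015) and Spearman's rho was 0.74 (permutation p = 1e-05, adjusted p = 0.00015). The relation was r = 0.84 in control and 0.75 in SER embryos alone, 0.72 without the 2 embryos farthest from the median, 0.71 in the cluster of 21 embryos and 0.68 in the cluster of 8, where it was not past the threshold. For the oocyte transcripts and the zygotic activation genes, the 2 farthest embryos were control replicate 4 and SER replicate 15. For Glrx, r was 0.84 (permutation p = 1e-05, adjusted p = 0.00015) and rho was 0.79 (permutation p = 1e-05, adjusted p = 0.00015). It was 0.82 in control and 0.88 in SER embryos, 0.76 without the 2 farthest embryos, 0.76 in the larger cluster and 0.40 in the smaller, where it was no longer past the threshold. Among all 8571 genes tested, 9.66% had an r of at least 0.5, and 0.607% and 0.163% had an r at least as high as those of Ggct and Glrx.

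Gclc, Gss and Gpx4 were lower in embryos with more oocyte transcripts. For Gclc, r was -0.71 (n = 31, permutation p = 4e-05, adjusted p = 0.0004) and rho was -0.60 (permutation p = 0.00054, adjusted p = 0.0054), with r = -0.66 in control, -0.75 in SER and -0.60 without the 2 farthest embryos. Gclc had 0, 4 and 0 counts in the 3 embryos richest in oocyte transcripts, control replicates 3 and 4 and SER replicate 15. For Gss, r was -0.57 (permutation p = 0.0008, adjusted p = 0.006) and rho was -0.50 (permutation p = 0.00497, adjusted p = 0.0373), with r = -0.73 in control, -0.38 in SER and -0.54 without the 2 farthest embryos. For Gpx4, r was -0.49 (permutation p = 0.00529, adjusted p = 0.0264) and rho was -0.39 (permutation p = 0.0313, adjusted p = 0.144), and without the 2 farthest embryos r was -0.31 and no longer past the threshold, so the relation rests on those embryos. In the clusters of 21 and 8 embryos r was -0.66 and -0.21 for Gclc, -0.47 and -0.77 for Gss and -0.26 and -0.25 for Gpx4, and of these only the r of Gclc in the larger cluster passed the threshold. With 1 group alone, Gclc passed in SER embryos, Gss in control embryos and Gpx4 in neither. Of all genes tested 17.5% had an r of -0.5 or lower, and 5.16%, 13.4% and 18.0% had an r at or below those of Gclc, Gss and Gpx4. Values like those of Gss and Gpx4 were therefore common among all genes.

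**Figure D4:**
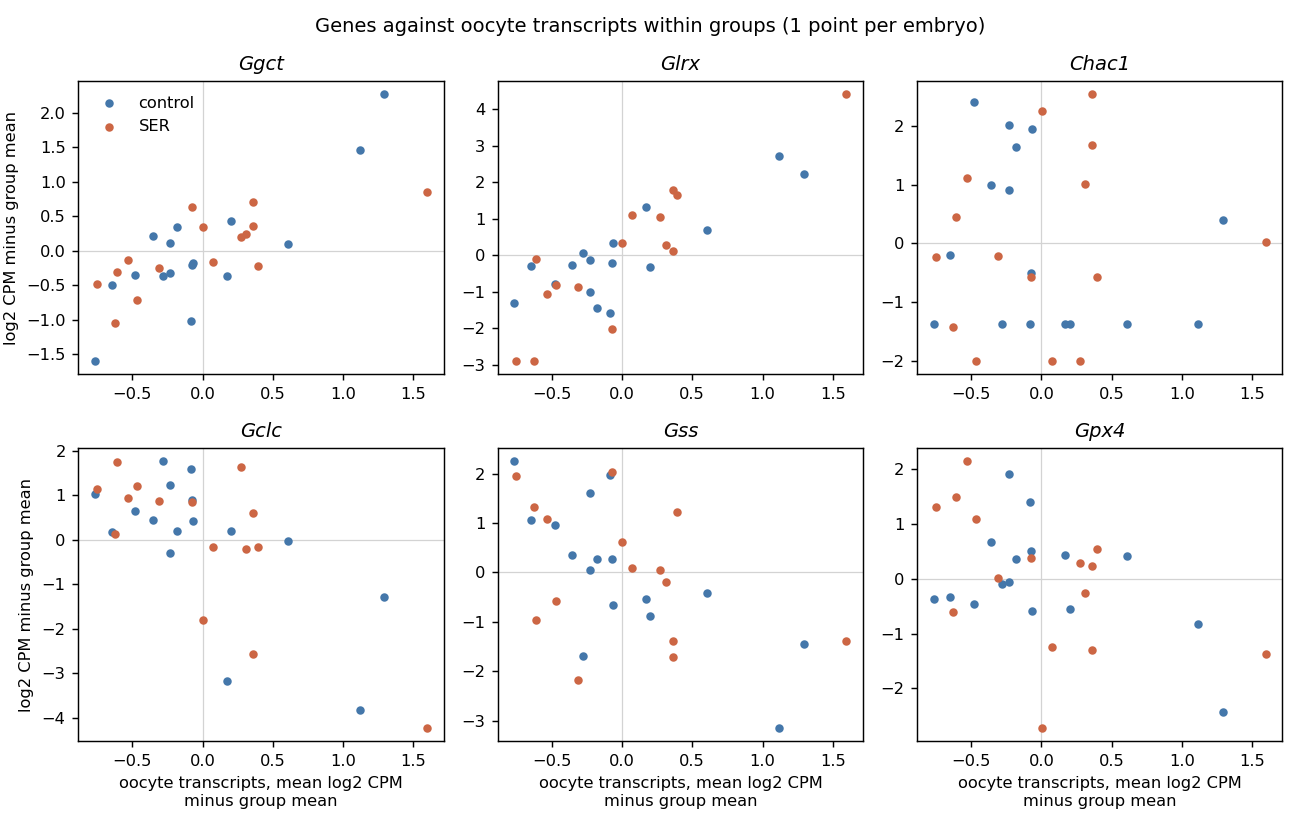
Level of 6 genes (log2 CPM minus the group mean) against the mean level of 23 oocyte transcripts (log2 CPM minus the group mean), with 1 point per embryo and colours for the groups. Ggct (r = 0.78) and Glrx (r = 0.84) rise to the right, Gclc (r = -0.71), Gss (r = -0.57) and Gpx4 (r = -0.49) fall, and Chac1 (r = -0.04) shows no slope, and 3 embryos lie far to the right.

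The other 5 genes, Gclm, Gsr, Gpx1, Oplah and Chac1, had r between -0.40 and -0.04 with the oocyte transcripts and adjusted p of 0.0977 to 0.882 (permutation test). With library totals in place of TMM, Gpx1 passed as well (r = -0.48, permutation adjusted p = 0.0314), while without the 2 farthest embryos its r was 0.024. With the mean level of 20 zygotic activation genes, Gpx1 alone passed, with r = 0.53 (n = 31, permutation p = 0.00371, adjusted p = 0.0223) and rho = 0.39 (permutation p = 0.0336, adjusted p = 0.144). Without the 2 farthest embryos r was 0.14, so the relation of Gpx1 rests on them. With library size, 0 of the 10 genes passed, and r lay between -0.41 for Chac1 and 0.29 for Glrx.

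**Figure D5:**
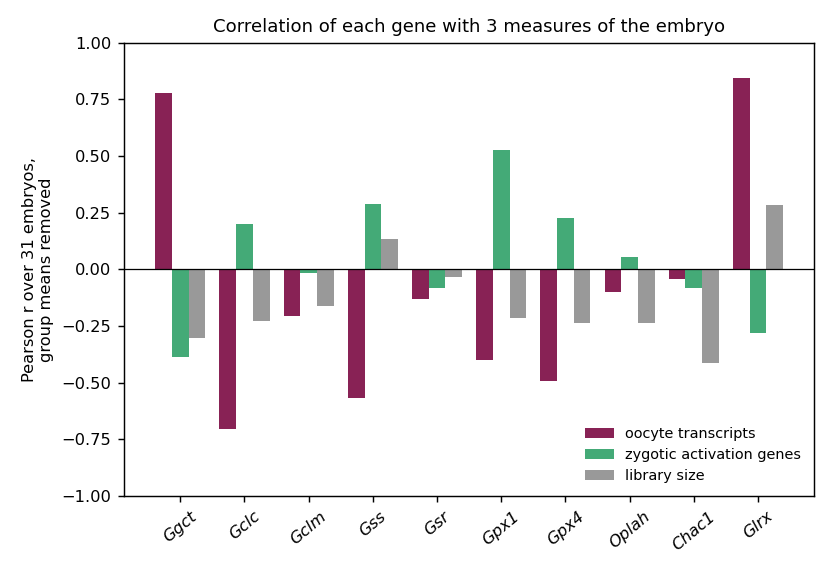
Pearson's r over 31 embryos, with group means removed, of each gene with the oocyte transcripts, the zygotic activation genes and the library size, as bars from 0. The oocyte transcripts give the longest bars, 0.84 for Glrx, 0.78 for Ggct and -0.71 for Gclc, and the longest bar of library size is -0.41 for Chac1.

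Among themselves the genes varied mostly apart, with a median r of -0.02 over the 45 pairs of genes, given as a description. Ggct was most alike to Glrx (r = 0.59, rho = 0.49) and had a negative r with 7 of the other 9 genes. Gclc, Gpx1 and Gpx4 had positive r with each other, with r = 0.58 (rho = 0.35) for Gclc and Gpx1 and r = 0.57 (rho = 0.48) for Gpx1 and Gpx4. Gss was most alike to Gclc (r = 0.46, rho = 0.30). How far these r rest on control replicate 4 and SER replicate 15 was not tested. The lowest r was that of Gclc and Glrx, at -0.73. For Gclm the most alike gene was Gclc (r = 0.11), for Gsr it was Gpx1 (r = 0.28), for Oplah it was Gpx4 (r = 0.26) and for Chac1 it was Ggct (r = 0.26). Of the 8570 other genes tested, those most like Ggct were Tcl1b1 (r = 0.87), Nudt7 (r = 0.84), Bcl2l10 (r = 0.84), Tcl1b3 (r = 0.83) and Hpf1 (r = 0.83) over 31 embryos, against a median of -0.05 and a lowest r of -0.85. Without the 2 embryos farthest from the median in Ggct itself, the r of these 5 genes ran from 0.73 for Hpf1 to 0.85 for Tcl1b1. Bcl2l10, an anti-apoptotic gene abundant in oocytes, was at 2591 ± 2126 CPM (SD, n = 16) in control and 1270.0 ± 1008 CPM (SD, n = 15) in SER embryos, and Tcl1b1, of a family expressed in oocytes and cleavage embryos, was at 1755 ± 1271 and 925 ± 427 CPM. None of the 5 was in the list of oocyte transcripts.

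Of 83 further genes of glutathione and thiol metabolism, from transferases and thioredoxins to cysteine supply and NADPH, 41 passed the count filter, and 0 passed the threshold in edgeR's test. Of the 41, 22 were lower and 19 higher in SER embryos, and the median of their log2 fold changes was -0.02 against 0.02 over all genes tested. At an unadjusted p under 0.05, 4 were lower and 1 higher, where 3.55% and 2.18% of all genes were. The smallest unadjusted p among the lower genes belonged to Idh1, the cytosolic source of NADPH from isocitrate, at 57.4 ± 161 CPM (SD, n = 16) in control and 8.34 ± 8.18 CPM (SD, n = 15) in SER embryos. Its control mean was raised by 1 embryo at 660 CPM, with a control median of 20.4 CPM, and its log2 fold change was -2.72 (SE 0.79, edgeR adjusted p = 0.403). Cth, which makes cysteine from cystathionine, had a log2 fold change of -1.07 (SE 0.37, edgeR adjusted p = 0.586), with means of 83.9 and 43.4 CPM. Gstp1, a glutathione S-transferase with a near-identical neighbouring copy that can share its reads, had -1.24 (SE 0.48, edgeR adjusted p = 0.731), with means of 26.3 and 11.4 CPM. Among the higher genes, Ptges2 had 1.303 (SE 0.56, edgeR adjusted p = 0.797), Pgd, an NADPH-producing enzyme of the pentose phosphate pathway, had 0.66 (SE 0.38, edgeR adjusted p = 0.889), and the secreted peroxidase Gpx3 had 0.44 (SE 0.29, edgeR adjusted p = 0.929).

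Along the oocyte transcripts, 9 of the 41 genes (21.95%) had an r of at least 0.5, against 9.66% of all genes tested, and 7 (17.1%) had an r of -0.5 or lower, against 17.5%. These shares are a description, since genes of an embryo are not independent. The highest r were those of Mgst3, a microsomal glutathione transferase and peroxidase (r = 0.75), and Slc7a11, the importer of cystine (r = 0.72). The lowest were those of Slc1a5, a neutral amino acid transporter that carries glutamine (r = -0.82), and Glul, glutamine synthetase (r = -0.70). These 4 genes were named after their values were seen.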

How the data were processed

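Smart-seq3 libraries of 31 single 2-cell embryos were analysed. The authors separated reads with a molecular identifier, from transcript starts, from internal reads, aligned them with STAR and removed duplicates. They then merged both kinds of reads, assigned them to genes, and deposited raw counts for 20544 gene symbols with no normalization. The submitters' processing notes name mm10, while the annotation, the strand setting and the versions of the tools are not given in the sources used here. The study corrected for batches, which the labels and columns do not name for each embryo, so no batch term was used.

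The comparison of the groups used the quasi-likelihood test of edgeR 4.0.16 in R 4.3.3 (TMM normalization, no covariates), with Benjamini-Hochberg adjustment over all genes kept by filterByExpr (minimum count 10, minimum total count 15), and an adjusted p under 0.1 counted as a call. Standard errors are the log2 fold change over the square root of F. DESeq2 1.42.0, limma 3.58.1 (voom with quality weights), other size factors, filters and covariates, thinned counts, the replicate number as a block and leaving out each embryo were alternatives. Correlations used log2 CPM with a prior count of 2 (Python 3.11.15, scipy 1.17.1). Embryo clusters, set to 3, were estimated by k-means on the 1000 most variable genes. The study reports 3 batches, and whether the clusters follow them cannot be told from the labels. Levels per length used exonic bases of GENCODE vM21, with a pseudocount of 0.5 in log2 ratios between genes, and upstream sequences came from RefSeq (GRCm38.p6), which matched 7 of the 10 genes (not Gclc, Gsr and Oplah). Named genes were the 10 members, the 3 further glutathione genes with the smallest unadjusted p in each direction, the 5 genes most like Ggct and the most alike member of each other member. Members, lists and tests were chosen with earlier results of these data known. The fits were tested on simulated data. No pair of embryos of a group agreed within sampling noise, and no embryo was left out of the main comparison.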

Additional observations from a re-analysis of the deposited data

How the results depend on the processing

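No call of the 9 genes by edgeR appeared under any alternative of normalization, filter, covariate or left-out embryo, and 1 of them, Glrx, was called by DESeq2 and 1, again Glrx, by limma voom. Of 878 recomputed values, 796 kept their direction and side of the threshold, 44 changed sign, 17 lost and 3 gained a call, and 18 counts moved by more than 1.5 times. The log2 fold change of Ggct ran between -1.44 and -0.79 over the 12 alternatives and between -1.37 and -0.997 when each embryo was left out, with -0.997 without control replicate 4. These fits use the same embryos whose comparison chose Ggct, so a kept sign is no support for its difference. The number of all genes called was 504 of 17803 without the filter, 41 of 8571 with the estimated clusters as a term, 45 of 7436 by DESeq2 and 848 of 8571 by limma voom. Of the further glutathione and thiol genes tested in these fits, 6 of 82, 1 of 41, 0 of 36 and 3 of 41 were called.

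The log2 fold changes of Gsr, Gpx1, Gpx4 and Gclc, none of them past the threshold, changed sign under some alternatives. Gsr was at 0.77 by limma voom, -0.11 with the estimated clusters, -0.078 with the length trend removed and -0.24 with the oocyte transcripts as a covariate, and ran from -0.23 to 0.29 when each embryo was left out. Gpx1 was at 0.018 with the length trend removed and 0.26 by limma voom. Gpx4 was at -0.058 with the clusters, -0.11 with thinned counts, -0.46 with the oocyte covariate and -0.029 without control replicate 4 and SER replicate 15, and ran from -0.24 to 0.21 when each embryo was left out. Gclc was at -0.088 with the oocyte covariate. The covariate, the pair of left-out embryos, the correlations within clusters and the transcript length were chosen after seeing the data, and the cause of these shifts was not tested.

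With the replicate number as a block, Gsr was at -0.0032 and Gpx4 at -0.16, Ggct was at -1.06, and 0 genes were called, with 311 at an unadjusted p under 0.05 in place of 491. The labels do not say whether the numbers pair the embryos. Same-numbered embryos correlated between -0.37 and 0.49 (median 0.11), 8 of 15 pairs above 0.1, and 2 of 15 were most like their own number. These values do not decide whether the numbers follow a shared male or batch.

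The number of the 10 genes correlated with the oocyte transcripts, 5 over all embryos, was 6 with library totals in place of TMM, where Gpx1 was added, 5 with either other prior count and with thinned counts, 4 without the 2 farthest embryos, 3 in control embryos alone, 3 in SER embryos alone, 3 in the cluster of 21 embryos and 0 in the cluster of 8, where fewer embryos entered. For the zygotic activation genes the number of 1 became 0 without the 2 farthest embryos, which are the pair that stood apart, in SER embryos alone and in either cluster. The r of Gpx1 was -0.72 in the cluster of 8. Per transcript length, the log2 ratio of Gclc to Gss was -1.27 and that of Glrx to Gclm was 1.07. Oplah and Chac1 had medians of 1 and 4 counts over the 31 embryos, with an r with library size of -0.24 and -0.41.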
